A study of Mus musculus with 12 samples.

Results

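The renin-angiotensin system genes were followed in aortas of mice whose challenge included AngII itself, the end product of that system. The 9 members, Agt, Ren1, Ace, Agtr1a, Agtr1b, Agtr2, Mas1, Agtrap and Atp6ap2, were the genes of 34797 on the array whose probes carry these names. Total RNA of aortas from male mice (strain given as 129S5/SvEvBrd, C57BL6 and SJL, age not given) was hybridised to 12 one-colour arrays, 3 for each of 4 groups. All mice carried floxed Socs3 alleles (Socs3fl/fl). WT mice were the littermates without Cre, and smSocs3-KO mice carried SM22-Cre, in which a smooth muscle promoter drives the recombinase, so that the deletion is aimed at smooth muscle cells. Each genotype was sampled before challenge and at day 3 of BAPN + AngII. Osmotic minipumps delivered BAPN, an inhibitor of lysyl oxidase (150 mg/kg/day), together with AngII (1000 ng/kg/min). The BAPN and AngII arms were not separated, and whether arrays came from separate animals is not stated, so the p-values measure only the spread between these arrays.

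In this system, renin cleaves angiotensinogen to angiotensin I, and angiotensin-converting enzyme turns that into AngII. AngII acts on the AT1 receptor, which in mice has a pair of genes, to contract smooth muscle and raise blood pressure. The AT2 and Mas receptors are known for opposing actions, the AT1 receptor-associated protein for internalising the AT1 receptor, and the (pro)renin receptor for binding renin and for its part in the proton pump of lysosomes. Circulating angiotensinogen and renin are made mainly in liver and kidney.

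Levels are log2 processed signals relative to the 75th percentile of their array, so that 0 is the signal of a probe at that percentile, and they are not compared between probes. A probe counted as well above background when it cleared the local background by 13 SD, which held for 55.4% to 61.2% of spots per array, and no spot was saturated. Socs3 was not lower on the arrays labelled smSocs3-KO. Its level was 0.30 to 0.75 in WT and 0.24 to 1.46 under the smSocs3-KO label before challenge, and 0.64 to 2.30 and 2.28 to 4.13 at day 3, with differences of 0.49 (SE 0.53, limma adjusted p = 1) and 1.52 (SE 0.53, adjusted p = 0.208). Whether its probe lies in the deleted part was not tested. All WT arrays and replicate 1 of the smSocs3-KO arrays before challenge shared slide 1, and the other 5 smSocs3-KO arrays were on slide 2, so that genotype and slide can hardly be told apart. Of the cell types, the smooth muscle (8 of 8), endothelial (8 of 8), fibroblast (7 of 7) and macrophage markers (7 of 7) were well above background on all 12 arrays. WT replicate 4 at day 3 stood apart from the other challenged arrays, with a summed macrophage marker level (linear scale) of 41.3, where the other 5 had 69.8 to 102.2 and the 6 unchallenged arrays 35.6 to 52.3. Results that this array decides are given with and without it.

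Of the 9 members, 7 were well above background throughout at least 1 group of arrays and were tested among 22761 genes. The receptors Agtr2 and Mas1 were not well above background on any of the 12 arrays, with levels of -7.07 to -5.76 for Agtr2 and, for the overlapping Mas1 probes, -6.98 to -4.52 and -6.67 to -4.84. In WT, 0 of the 7 passed an adjusted p under 0.05, against 4.68% of all genes, and 2 had an unadjusted p under 0.05, as had 26.6% of all genes. Under the smSocs3-KO label, 0 passed against 2.45% of all genes, with 3 at the unadjusted threshold, as were 23.8% of all genes. In the mean of both challenge responses, which sets all 6 day 3 arrays against the 6 unchallenged ones, Agtrap rose and no other member passed, against 22.7% of all genes. The member median of the log2 change was -0.37 in WT, 0.26 under the smSocs3-KO label and -0.02 in the mean response, beside -0.02, -0.06 and -0.05 over all genes. In bulk tissue, fewer cells of a type and less RNA per cell cannot be told apart.

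**Figure D1:**
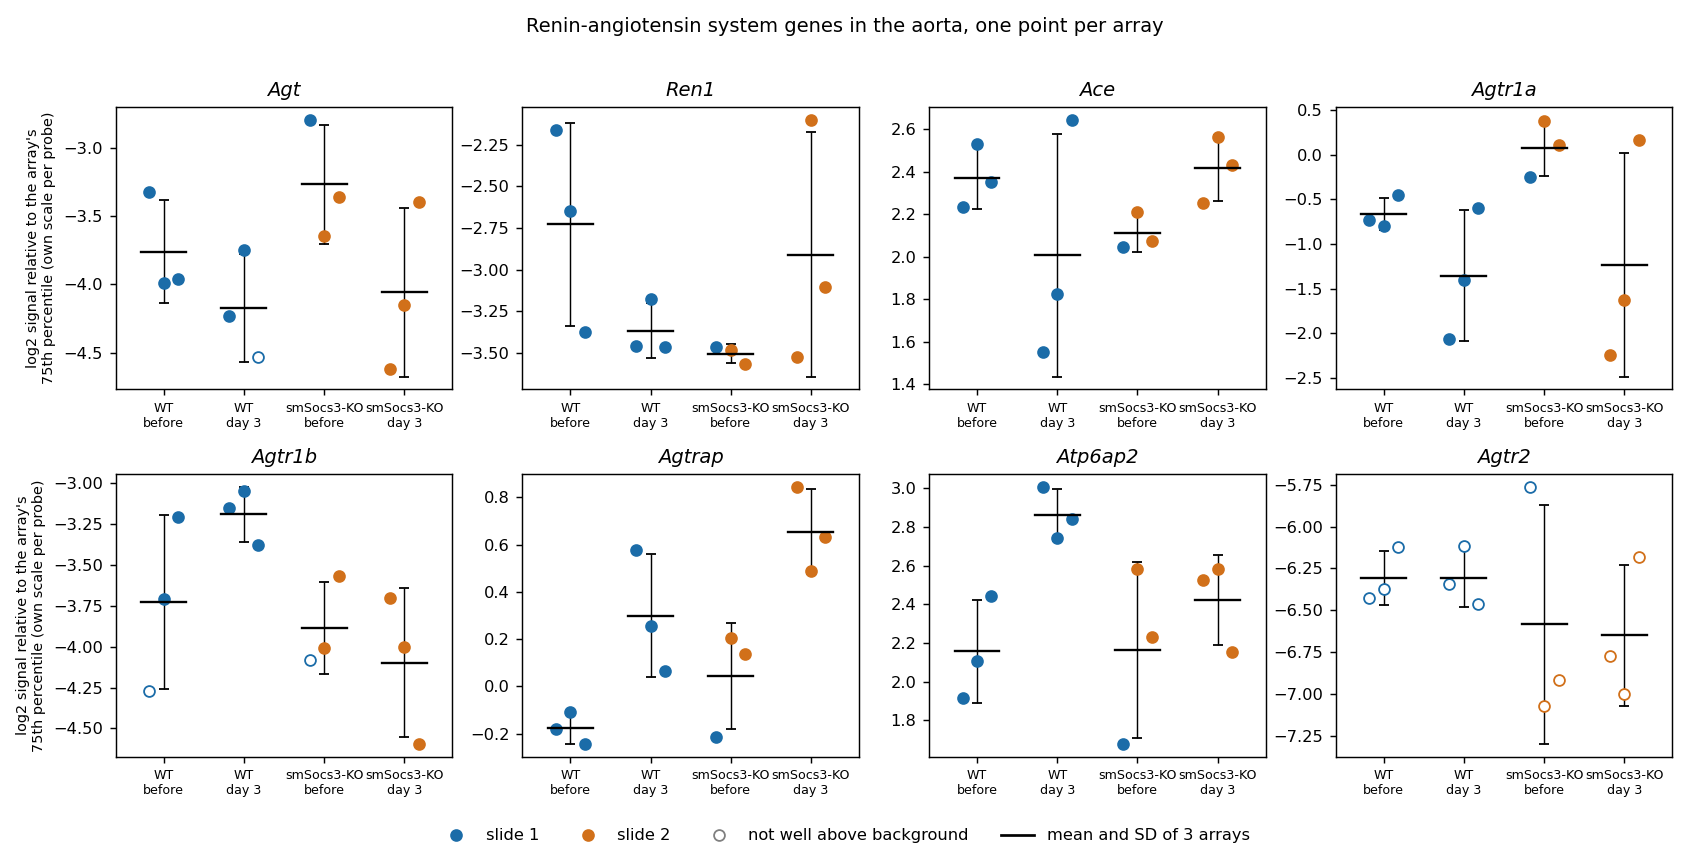
Log2 signal relative to the array's 75th percentile (y axis) of the 7 tested members and of Agtr2 in the 12 arrays, by group (x axis). Points are single arrays, coloured by slide and open where the probe was not well above background, and black bars are the mean and SD of 3 arrays. Agtrap was between -0.24 and 0.20 before challenge and between 0.06 and 0.84 at day 3.

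Of the receptor-binding proteins, Agtrap rose in the mean response and Atp6ap2 did not pass the test. Agtrap, the gene of the AT1 receptor-associated protein, was at -0.18, -0.11 and -0.24 in WT before challenge and at 0.58, 0.25 and 0.06 at day 3. With the smSocs3-KO label, it was at -0.21, 0.20 and 0.14 before challenge and at 0.84, 0.49 and 0.63 at day 3. Every challenged array was above every unchallenged array of its own genotype. The log2 change was 0.48 (SE 0.18, adjusted p = 0.130) in WT and 0.61 (SE 0.18, adjusted p = 0.0896) under the smSocs3-KO label, and the mean response of 0.54 (SE 0.13, 95% interval 0.26 to 0.83, adjusted p = 0.0160) was 1.46-fold. With slide as a fixed block the mean response was 0.48 (adjusted p = 0.0286), and without WT replicate 4 at day 3 it was 0.60 (adjusted p = 0.00761).

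Atp6ap2, the gene of the (pro)renin receptor, was at 1.92, 2.11 and 2.44 in WT before challenge and at 3.01, 2.74 and 2.84 at day 3, again with no overlap. On the arrays labelled smSocs3-KO the ranges overlapped, with 1.68, 2.58 and 2.23 before challenge and 2.53, 2.58 and 2.15 at day 3. The log2 change was 0.71 (SE 0.24, adjusted p = 0.0980) in WT, 0.26 (SE 0.24, adjusted p = 0.523) under the smSocs3-KO label and 0.48 (SE 0.17, adjusted p = 0.0618) in the mean. The WT value had an adjusted p of 0.0453 with slide as a fixed block and of 0.0465 without smSocs3-KO replicate 1 before challenge. In WT, limma called 10.4% and 9.96% of all genes there, against 4.68% in the main fit. These fits are nearly the same, since that array is the only one of its label on slide 1. Neither adjusts the WT change for slide, as all WT arrays share slide 1. Under the smSocs3-KO label the value within slide 2 was 0.01 (adjusted p = 0.979).

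The 250 bases before the start of these 2 genes, the members with the highest mean responses, are shown from RefSeq (GRCm38.p6), with each CG in capitals: Agtrap at chr4:148088065-148088314 on the minus strand and Atp6ap2 at chrX:12587509-12587758 on the plus strand.
Agtrap: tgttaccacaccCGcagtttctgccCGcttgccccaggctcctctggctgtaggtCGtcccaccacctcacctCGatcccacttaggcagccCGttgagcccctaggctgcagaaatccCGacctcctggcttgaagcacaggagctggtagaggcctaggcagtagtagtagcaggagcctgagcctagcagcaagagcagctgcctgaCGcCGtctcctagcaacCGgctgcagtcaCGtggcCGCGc
Atp6ap2: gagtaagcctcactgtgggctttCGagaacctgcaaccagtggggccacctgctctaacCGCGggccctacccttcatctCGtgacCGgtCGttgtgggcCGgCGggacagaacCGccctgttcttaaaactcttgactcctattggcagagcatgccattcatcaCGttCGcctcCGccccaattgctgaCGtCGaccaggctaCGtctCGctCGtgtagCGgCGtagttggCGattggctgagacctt
They hold 12 and 20 CG, where the median of 32851 such promoters is 6, and neither holds TATAAA on either strand, a sequence found in 12.4% of promoters. The 60-base array probes lay elsewhere in each gene, at chr4:147454431-147454490 for Agtrap and chrX:12193624-12193683 for Atp6ap2 (mm9).

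Macrophage markers also moved with the challenge. The 3 tested genes whose level over the 12 arrays was most like Agtrap were Bid (Pearson r = 0.983), which encodes a death agonist of the Bcl-2 family, Fcer1g (0.982), the Fc receptor gamma chain, and Fcgr2b (0.980), the inhibitory Fc receptor. Against 22.7% of all genes called, 6 of the 7 macrophage markers rose in the mean response. Their mean log2 level was 2.50, 1.98 and 1.20 in the WT day 3 replicates, in the same order as 0.58, 0.25 and 0.06 for Agtrap. In the smSocs3-KO day 3 replicates it was 2.53, 2.61 and 2.88, where Agtrap was at 0.84, 0.49 and 0.63. The summed macrophage marker level of the same replicates was 102.2, 98.05 and 93.78. The array of this group with the highest Agtrap thus had the lowest marker level by mean log2 and the highest by sum. Of the 8 smooth muscle markers, 2 fell, a share near the 22.7% of all genes called. The summed smooth muscle marker level was 2379 to 3565 before challenge and 1711 to 2651 at day 3. The part of cell composition in the rise of Agtrap was not tested. Most like Atp6ap2 were Fam92a (0.985), Papss1 (0.983), a sulfate donor synthase, and Fut8 (0.979), a fucosyltransferase. The 12 arrays hold both days, so that shared day effects are in all these values.

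**Figure D2:**
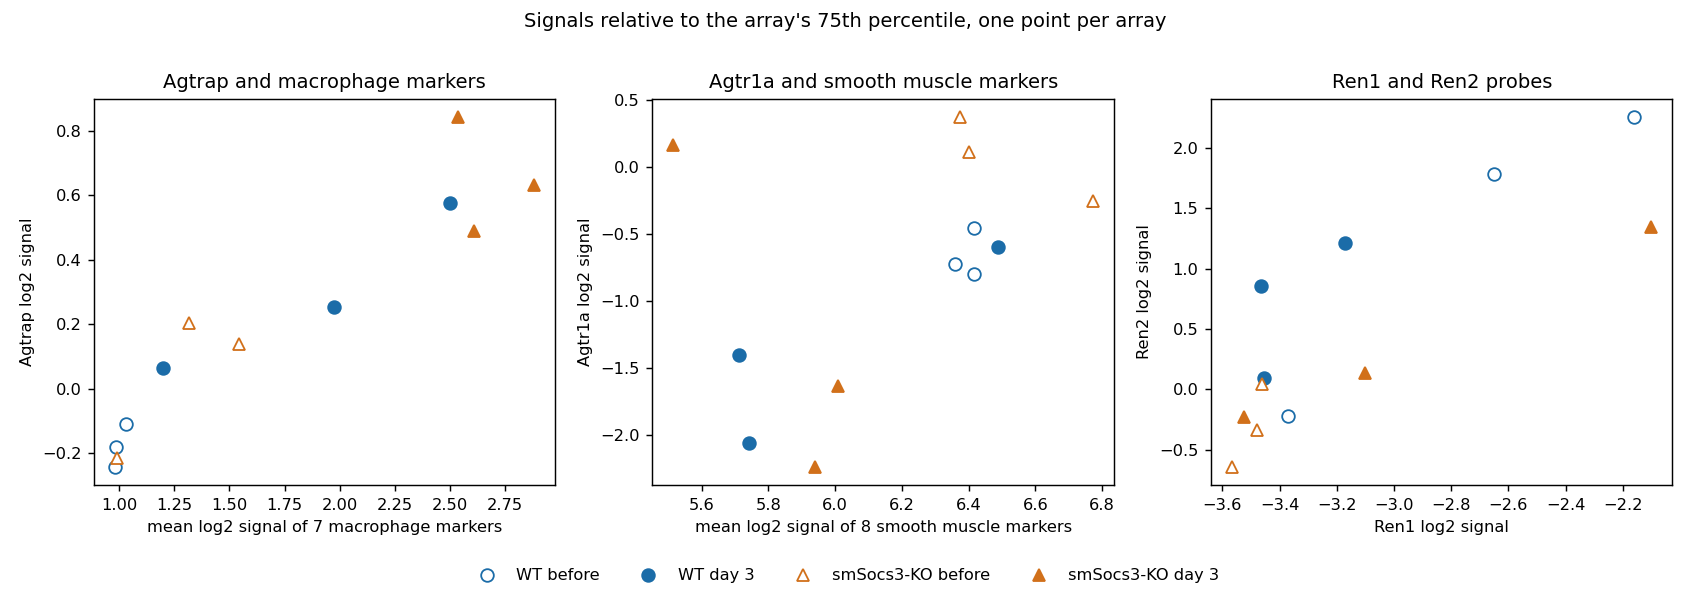
Log2 levels in the 12 arrays, 1 point per array with the group as colour and fill: Agtrap against the mean of 7 macrophage markers, Agtr1a against the mean of 8 smooth muscle markers, and the Ren2 probe against the Ren1 probe. The macrophage mean was 0.98 to 1.54 before challenge and 1.20 to 2.88 at day 3, and no test was made.

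The AT1 receptor genes did not pass the test in any comparison. Agtr1a, the AT1 receptor gene well above background on all 12 arrays, was at -0.73, -0.80 and -0.46 in WT before challenge and at -2.06, -1.40 and -0.60 at day 3. Under the smSocs3-KO label it was at -0.25, 0.38 and 0.11 before challenge and at -2.24, -1.63 and 0.17 at day 3. In each genotype 2 challenged arrays lay below all unchallenged ones, and 1 lay among them. The log2 change was -0.70 (SE 0.54, adjusted p = 0.428) in WT, -1.31 (SE 0.54, adjusted p = 0.175) under the smSocs3-KO label and -1.0 (SE 0.38, adjusted p = 0.0774) in the mean. The mean response passed the threshold on leaving out either array that stayed high: -1.19 (adjusted p = 0.0424) without WT replicate 4 at day 3, and -1.35 (adjusted p = 0.0163) without smSocs3-KO replicate 5 at day 3. Leaving out an array that stayed high makes the fall larger by itself. In 20 of 24 alternatives the mean response did not pass, with limma adjusted p up to 0.176. The mean log2 level of macrophage markers was 1.20 on WT replicate 4, the lowest of day 3, and 2.88 on smSocs3-KO replicate 5, the highest. By summed level WT replicate 4 was again the lowest of day 3, but smSocs3-KO replicate 5 (93.78) was not the highest (102.2). That of smooth muscle markers was 6.49 on the first and 5.52 on the second, the highest and the lowest of day 3, and it was 6.36 to 6.77 before challenge. The genes most like Agtr1a over the 12 arrays were Tcf23 (r = 0.948), Nfil3 (0.936) and Klk8 (0.922), of which Nfil3 is a transcription factor of the circadian and immune programmes.

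Agtr1b, the second AT1 receptor gene, was dim and not well above background on 2 of 12 arrays. Its levels were -4.27, -3.71 and -3.20 in WT before challenge, -3.15, -3.05 and -3.38 in WT at day 3, -4.08, -4.01 and -3.57 under the smSocs3-KO label before challenge and -3.70, -4.00 and -4.60 at day 3. The change was 0.54 (SE 0.30, adjusted p = 0.269) in WT and -0.21 (SE 0.30, adjusted p = 0.671) under the smSocs3-KO label. The probes of both AT1 receptor genes share no run longer than 6 bases. Whether each probe also binds the transcript of the other gene was not tested.

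The precursor and the enzymes did not pass the test in any comparison. Agt was near the lower end of what the array measured, at -3.33, -3.99 and -3.96 in WT before challenge and -4.23, -3.75 and -4.53 at day 3, the last of which was not well above background. The smSocs3-KO arrays had -2.79, -3.65 and -3.36 before challenge and -4.62, -4.15 and -3.40 at day 3. The changes were -0.41 (SE 0.35, adjusted p = 0.470) and -0.79 (SE 0.35, adjusted p = 0.201), and the mean response was -0.60 (SE 0.25, adjusted p = 0.0974), or -0.77 (adjusted p = 0.0470) without smSocs3-KO replicate 5 at day 3. That array had the highest Agt level of day 3, so leaving it out makes the fall larger by itself. Of the 6 liver markers, Apoa2, Serpina1a and Cyp2e1 were well above background on all 12 arrays, Fgb on 3, and Alb and Ttr on 0. The summed liver marker level was 13.7 to 17.4 before challenge and 11.2 to 51.0 at day 3.

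Agt was the member whose 250 bases before the start, at chr8:124569707-124569956 on the minus strand (GRCm38.p6), held TTCNNNGAA, the letters that Stat factors are known to bind, and Socs3 is known as an inhibitor of signalling through Stat3. In capitals are TTCCTGGAA, at -172 to -164 from the start, and TATAAA, at -30 to -25.
Agt: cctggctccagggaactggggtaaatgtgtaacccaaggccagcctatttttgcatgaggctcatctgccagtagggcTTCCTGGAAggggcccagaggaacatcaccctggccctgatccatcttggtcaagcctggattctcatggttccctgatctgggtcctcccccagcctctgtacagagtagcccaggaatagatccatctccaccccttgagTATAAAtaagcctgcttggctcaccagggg
TTCNNNGAA, which reads the same on both strands, was in 7.02% of all promoters of this length and in that of no other member among the 8 with a RefSeq promoter. TATAAA was also before Ren1, at -29 to -24, before Agtr1b, at -31 to -26, and on the opposite strand in 1 of 2 Ace promoters, at -31 to -26. Such matches are letters in a window and not measured sites. The Agtr1a promoter was not used here.

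Ren1 was dim, at -3.57 to -2.10. Its changes had opposite signs in the genotypes, with 95% intervals that both included 0, and the test of their difference was not passed. Its levels were -2.16, -2.65 and -3.37 in WT before challenge, -3.46, -3.17 and -3.47 in WT at day 3, -3.46, -3.48 and -3.57 under the smSocs3-KO label before challenge and -3.53, -2.10 and -3.10 at day 3. A pair of WT arrays before challenge and 1 smSocs3-KO array at day 3 lay above the rest. The change was -0.64 (SE 0.36, adjusted p = 0.280) in WT and 0.59 (SE 0.36, adjusted p = 0.330) under the smSocs3-KO label, and within slides 1 and 2 it was -0.64 (adjusted p = 0.231) and 0.61 (adjusted p = 0.494). The interaction was 1.23 (SE 0.51, adjusted p = 0.926), and with normexp background correction it was 0.38.

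The levels of Ren2, the second renin gene, which only some mouse strains carry, were 2.26, 1.79 and -0.22 in WT before challenge, 0.09, 1.21 and 0.85 in WT at day 3, 0.05, -0.34 and -0.65 under the smSocs3-KO label before challenge and -0.23, 1.35 and 0.13 at day 3. Ren2 was the second most like gene to Ren1 (r = 0.837), after Fhl5 (0.882), and their probes share no run longer than 6 bases. Ren1 and Ren2 are near-identical, so their values are uncertain, and whether these mice differ in Ren2 gene copies was not tested. The changes of Ren2 were -0.56 (SE 0.61) in WT and 0.73 (SE 0.61) under the smSocs3-KO label. Of the 6 kidney markers, Aqp2 was well above background on 12 arrays, Cdh16 on 11, Slc34a1 and Kap on 1 each, and Umod and Slc12a1 on 0, and the summed kidney marker level was 0.31 to 1.59.

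Ace was well above background on all arrays, at 2.23, 2.53 and 2.35 in WT before challenge and at 1.55, 1.82 and 2.64 at day 3. The smSocs3-KO arrays had 2.04, 2.21 and 2.08 before challenge and 2.25, 2.56 and 2.43 at day 3, with no overlap. The changes were -0.37 (SE 0.25, adjusted p = 0.362) and 0.31 (SE 0.25, adjusted p = 0.458). Without WT replicate 4 at day 3, the highest Ace level of all arrays, the WT change was -0.69 (adjusted p = 0.0248). Leaving out that array makes the fall larger by itself, and the share of all genes called in WT went from 4.68% to 16%. The genes most like Ace were Sod3 (r = 0.887), the extracellular superoxide dismutase of the vessel wall, Aox1 (0.868) and Cyp4f14 (0.848).

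**Figure D3:**
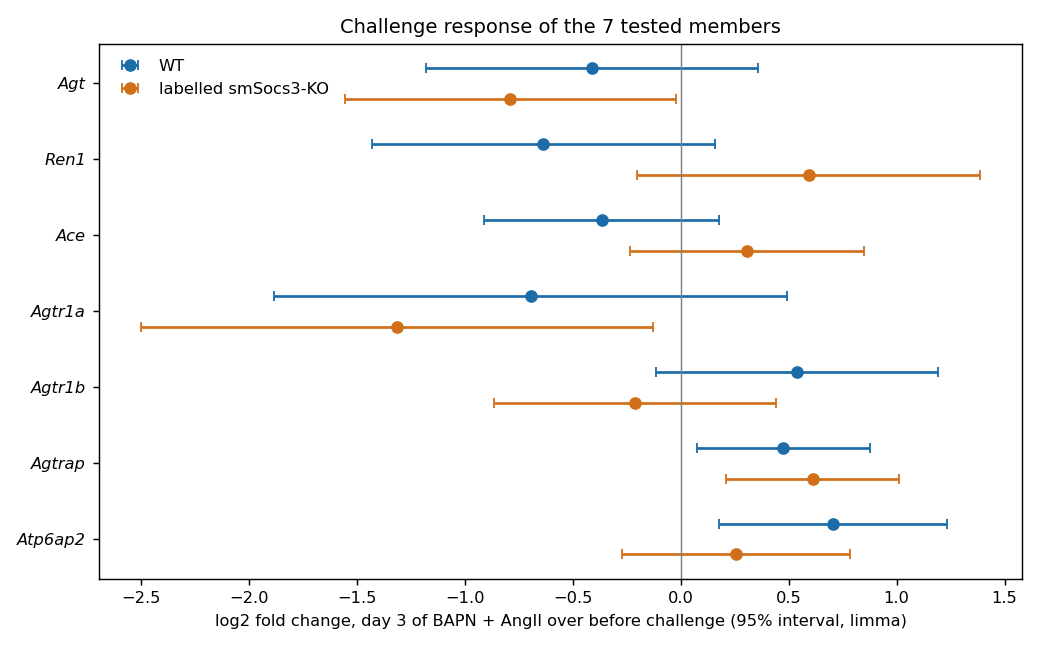
Challenge response of the 7 tested members as log2 fold change of day 3 over before challenge (x axis), in WT and under the smSocs3-KO label, with 95% intervals from limma. The Agtrap intervals lay above 0 in both genotypes, Atp6ap2 had its interval above 0 in WT, and the Agt and Agtr1a intervals lay below 0 under the smSocs3-KO label, all before adjustment over the 22761 genes.

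Groups that do not overlap were frequent in these data. In WT, 2 members (Agtrap, Atp6ap2) had no overlap between days, against 35.3% of all genes, and under the smSocs3-KO label 2 (Ace, Agtrap), against 28.1%. Between genotypes, 0 members passed before challenge, against 0.0264% of all genes, and 0 passed at day 3, against 1.11%. Before challenge Agtr1a was higher under the smSocs3-KO label without overlap (0.74, adjusted p = 1), and Ace (-0.26, adjusted p = 1) and Ren1 (-0.78, SE 0.36, adjusted p = 1) were lower, against 11.1% of genes without overlap. At day 3, Agtr1b (-0.91, SE 0.30, adjusted p = 0.179) and Atp6ap2 (-0.44, SE 0.24, adjusted p = 0.392) were lower without overlap, against 20.5%. With slide as a fixed block, the Agtr1b difference was -1.20 (adjusted p = 0.316) and the Atp6ap2 difference -1.17 (adjusted p = 0.233). The slide term in this fit rests on a single array, smSocs3-KO replicate 1 before challenge, so these values cannot separate genotype from slide. In the interaction, limma called 0% of genes, and 1214 of 22761 had an unadjusted p under 0.05, Ren1 among them.

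Among the other enzymes that make or degrade angiotensin peptides, 18 of 19 were on the array and 16 were tested. In the mean response 4 of these 16 rose and 0 fell, a share near the 22.7% of all genes that passed. The list median was 0.10 beside -0.05 over all genes. Prep, the prolyl endopeptidase that can turn angiotensin I or AngII into angiotensin-(1-7), was at 0.54, 0.50 and 0.75 in WT before challenge and at 1.54, 1.31 and 1.06 at day 3. On the smSocs3-KO arrays it went from 0.34, 0.89 and 0.74 to 1.55, 1.22 and 1.65, so that every challenged array was above all 6 unchallenged ones. Its mean response was 0.76 (SE 0.14, adjusted p = 0.00782). Rnpep, or aminopeptidase B, rose by 0.61 (adjusted p = 0.00908), Dpp3, a peptidase that degrades AngII, by 0.46 (adjusted p = 0.0185) and Ctsb, a lysosomal protease, by 0.44 (adjusted p = 0.0282). None passed in a single genotype. Without WT replicate 1 before challenge, or without WT replicate 1 at day 3, 2 of the list passed, and the calls over all genes went from 5178 to 2533 and 2585. Cma1, the mast cell chymase that can form AngII, was well above background on 10 of 12 arrays, at -4.56 to -1.52. The summed mast cell marker level was 3.29 to 5.83 before challenge and 1.56 to 5.65 at day 3.

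In the kinin and mineralocorticoid list, 8 of 11 genes were tested, and in the mean response 4 rose and 1 fell, where 22.7% of all genes passed. Nr3c2, the mineralocorticoid receptor, was at -1.55, -1.58 and -1.49 in WT before challenge and at -2.80, -2.61 and -2.05 at day 3. Under the smSocs3-KO label it went from -0.67, -1.80 and -1.59 to -2.50, -2.62 and -2.84. Every challenged array was below all unchallenged ones, and the mean response was -1.12 (SE 0.20, adjusted p = 0.00731). Hsd11b1, which reactivates glucocorticoids, rose by 0.73 (adjusted p = 0.00804). Bdkrb1, the inducible kinin receptor, had a mean response with adjusted p = 0.0282 by limma, a call lost in 11 of 23 alternatives. It was tested only because it was well above background throughout the smSocs3-KO day 3 group, where it was highest, and the adjusted p does not account for that. Under the smSocs3-KO label, it was not well above background on any unchallenged array and was at least 4.27-fold higher at day 3. The bound was 7.15-fold without smSocs3-KO replicate 3 at day 3, 3.48-fold without replicate 2 and 3.13-fold without replicate 5. Such a bound sets the brighter group's mean against, on each array of the dimmer group, the higher of the probe's own signal and the lowest signal among probes well above background. Kng1, a kininogen gene, was at -3.29, -3.83 and -3.95 in WT before challenge and -1.07, 0.10 and -3.34 at day 3, and went from -2.13, -2.68 and -2.79 to 1.04, 0.43 and 1.26 under the smSocs3-KO label. Its mean response was 2.85 (SE 0.47, adjusted p = 0.00631). Kng2 was called as well (adjusted p = 0.00877) and was at least 5.57-fold higher at day 3 under the smSocs3-KO label. Like Bdkrb1, it was tested only through the smSocs3-KO day 3 group, where it was highest. Since Kng1 and Kng2 are near-identical, the pair is uncertain. Of the 6 adrenal cortex markers, Cyp21a1 was well above background on 12 arrays and Star on 10, while Cyp11b1, Cyp11a1, Hsd3b1 and Cyp11b2, the aldosterone synthase gene, were so on 0.

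All 26 genes of AT1 receptor signal transduction were tested, and in the mean response 3 rose and 4 fell, a share near the 22.7% of all genes that passed. Arrb2, a beta-arrestin that uncouples and internalises the receptor, was at -1.45, -1.29 and -1.08 in WT before challenge and at 0.02, -0.88 and -1.21 at day 3. Under the smSocs3-KO label it went from -1.14, -1.05 and 0.21 to 1.14, 0.93 and 0.86, with no overlap. Its mean response was 1.11 (SE 0.27, adjusted p = 0.0168). Grk5, a kinase that phosphorylates activated receptors, rose by 0.69 (adjusted p = 0.0397) and Egfr, a receptor that AngII signalling transactivates, by 0.44 (adjusted p = 0.0373). Itpr1, the calcium release channel opened by inositol trisphosphate, fell by 0.88 (adjusted p = 0.0170), Rock1, a kinase that promotes contraction, by 0.82 (adjusted p = 0.0341), Plcb1, the phospholipase that Gq activates, by 0.61 (adjusted p = 0.0409) and Arhgef1, a guanine nucleotide exchange factor, by 0.37 (adjusted p = 0.0473). The list median was 0.03. The count of 7 depended on single arrays: it was 2 on leaving out unchallenged WT replicate 1 or 2 or day 3 WT replicate 3, 3 without WT replicate 1 at day 3, smSocs3-KO replicate 1 before challenge or smSocs3-KO replicate 2, 3 or 5 at day 3, and 4 without WT replicate 3 or smSocs3-KO replicate 4 before challenge. The calls over all genes were 2533 to 4546 in these omissions, against 5178 with all arrays.

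Of 16 genes that AngII is known to induce in vascular cells, all tested, 7 rose in the mean response and 0 fell, where 22.7% of all genes passed. Their median was 0.58. Ccl2, a monocyte chemokine, was at -1.14, -1.13 and -0.63 in WT before challenge and at 4.34, 5.15 and -0.02 at day 3. On the smSocs3-KO arrays it went from -1.51, -0.09 and 0.27 to 4.56, 1.83 and 4.22, and its mean response was 4.05 (SE 0.83, adjusted p = 0.0103). Thbs1, a matricellular protein, rose by 3.21 (adjusted p = 0.00731), Rcan1, a calcineurin regulator, by 1.37 (adjusted p = 0.0253) and Ctgf, a fibrogenic matricellular protein, by 0.44 (adjusted p = 0.0356). Il6 and Spp1, an inflammatory cytokine and osteopontin, rose (adjusted p = 0.00914 and 0.00660) and were at least 38.3-fold and 32.5-fold higher at day 3 in WT, where neither was well above background before challenge. Their WT day 3 levels were 2.65, 3.51 and -3.41 for Il6 and 2.66, 1.79 and -2.25 for Spp1, and without WT replicate 4 at day 3 the bounds were 172-fold and 91.3-fold. Without WT replicate 1 at day 3 they were 20.9-fold and 16.6-fold, and for Il6 15.6-fold without WT replicate 3. Spp1 was tested only because it was well above background throughout the day 3 groups, where it was high, and its adjusted p does not account for that. WT replicate 4 at day 3 was the lowest of its group for Ccl2, Thbs1, Il6 and Spp1. The count was 4 on leaving out unchallenged WT replicate 1 or 2, day 3 WT replicate 1 or smSocs3-KO replicate 5 at day 3, with 2533 to 3555 calls over all genes. The infusion held BAPN as well, so the part of AngII in these changes cannot be told apart.

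In single comparisons, the lists held few calls. In WT, Il6 and Spp1 of the AngII-induced list passed, Spp1 being tested only through the day 3 groups, and 0 of the other lists. Without WT replicate 4 at day 3, 8 of the AngII-induced genes, 4 of the peptidases, 4 of the kinin and mineralocorticoid genes and 5 of the AT1 signalling genes passed in WT, where the calls over all genes went from 4.68% to 16%. Without smSocs3-KO replicate 1 before challenge 2 peptidases and 1 kinin and mineralocorticoid gene passed there, and without smSocs3-KO replicate 2 at day 3 1 AT1 signalling gene did. Leaving out any array of WT before challenge, WT replicate 1 or 3 at day 3 or smSocs3-KO replicate 4 before challenge left 0 of the AngII-induced list, and in these omissions 0 to 9 genes of the whole series passed. Under the smSocs3-KO label, Kng1, Kng2, Nr3c2 and Arrb2 passed, Kng2 being tested only through the day 3 arrays of that label. The kinin and mineralocorticoid count of 3 was 5 without WT replicate 4 at day 3 and 0 without any of 8 arrays, which were every array before challenge and smSocs3-KO replicates 2 and 5 at day 3. In these 8 omissions the calls over all genes were 42 to 374, against 557 with all arrays, and without WT replicate 4 at day 3 they were 1900. The AT1 signalling count of 1 was 3 without WT replicate 4 at day 3 and 0 without any of 8 arrays, which were every array before challenge but smSocs3-KO replicate 4, WT replicate 3 at day 3 and smSocs3-KO replicates 2 and 5 at day 3. Of the peptidases 2 and of the AngII-induced genes 4 passed without WT replicate 4 at day 3, and 1 AngII-induced gene without smSocs3-KO replicate 3 at day 3.

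Between genotypes, 1 listed gene passed. Hbegf, an EGF receptor ligand shed in response to AngII, was at 2.65, 2.28 and 2.37 in WT before challenge, 4.38, 3.94 and 3.16 in WT at day 3, 2.11, 2.19 and 2.29 under the smSocs3-KO label before challenge and 2.83, 1.42 and 1.45 at day 3. Its day 3 difference was -1.93 (SE 0.38, adjusted p = 0.0420), and -2.05 (adjusted p = 0.259) with slide as a fixed block, where limma called 0 of all genes and 3640 had an unadjusted p under 0.05. The slide term there rests on a single array, smSocs3-KO replicate 1 before challenge. The call was lost in 18 of 25 alternatives, which include the omission of any single array but WT replicate 4 or smSocs3-KO replicate 2 at day 3, with adjusted p from 0.0121 to 0.426 over all 25.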

How the data were processed

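Total RNA of mouse aorta was labelled with Cy3 and hybridised to 12 Agilent arrays, 3 per group, grouped by the sample labels. The authors deposited 1 scanner file per array, whose processed signal is a linear intensity after background subtraction and spatial detrending (Feature Extraction, spot analysis 10.7.1.1 per the file headers, 9.5.1.1 in the submitters' processing notes). The authors also deposited a table of intensity values that were quantile normalized (Spearman correlation of each column with its own array at least 0.999971), used as an alternative.

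Controls and outlier spots were dropped, log2 was taken and the 75th percentile of each array subtracted. Of 55681 probes, the 32283 that were well above background throughout at least 1 group were kept, and the brightest stood for its gene. All 12 arrays were fitted with 4 group means in limma 3.58.1 (R 4.3.3), with Benjamini-Hochberg adjustment over 22761 genes and an adjusted p under 0.05 as the threshold. The fit was tested on simulated data. Named genes were the 9 members, the genes of the pathway lists called in any comparison together with the 2 of each list that changed most, Ren2 and Cma1, and the 3 genes most like each member detected on all arrays. An exact test of 3 arrays against 3 cannot go below p = 0.1 and was not used. Slide, replicate number, background correction, normalization, filters and the omission of each array were tried as alternatives. The fits within a slide were chosen after seeing the data. The members and lists were chosen with earlier results of these data known. Gene names follow the array's design. Some genes of the pathway lists were counted with their list but are not reported here. Promoters came from RefSeq (GRCm38.p6), in which 8 of 9 members were matched, and probe positions are mm9. Dim probes and 3 arrays per group limit the precision.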

Additional observations from a re-analysis of the deposited data

How the results depend on the processing

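The call of Agtrap in the mean response held in 23 of 24 alternatives, with log2 values of 0.41 to 0.60 over all 24. It was lost with the replicate number as a block (0.53, adjusted p = 0.0983), where the count of members was still 1, Agtr1a (-1.40, adjusted p = 0.0273) passing in its place. In that fit 3.93% of all genes passed. Same-numbered arrays of different groups correlated between -0.403 and 0.464. They were not set against differently numbered arrays, so whether the numbers pair the samples was not tested. The mean response count was 2 with the percentile over probes detected on all arrays, where Agtr1a was added and the median change of all genes moved from -0.05 to -0.18, and 2 with trend and robust variances, where Atp6ap2 was added. Of all genes, 26.3% and 24.8% passed there, against 22.7% in the main fit. The member count ranged from 1 to 3 when single arrays were left out, being 2 without WT replicate 4 at day 3 (Agtr1a added), 2 without smSocs3-KO replicate 3 before challenge (Atp6ap2 added) and 3 without smSocs3-KO replicate 5 at day 3 (Agt and Agtr1a added). In these omissions 28.2%, 24.1% and 15.4% of all genes passed. The WT count was 1 with slide as a fixed block (Atp6ap2), and it ranged from 0 to 1 over the omissions, being 1 without WT replicate 4 at day 3 (Ace) and 1 without smSocs3-KO replicate 1 before challenge (Atp6ap2). In these fits 10.4%, 16% and 9.96% of all genes passed in WT, against 4.68% in the main fit. The smSocs3-KO response, genotype difference and interaction counts of members were 0 in every alternative run.

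The response of Agtr1b under the smSocs3-KO label changed sign with quantile normalization (0.0414), in the authors' value table (0.0417) and without smSocs3-KO replicate 5 at day 3 (0.0356), and it passed in none of them. It ranged from -0.4114 to 0.0356 when single arrays were left out. No other member value reversed among 606, and none of 1861 values of the other named genes did. Normexp background correction brought the responses of Ren1 to -0.30 in WT and 0.07 under the smSocs3-KO label, and the day 3 difference of Agtr1b to -0.49. With the replicate block, the calls in the mean response were 0 for the peptidases, 1 for the kinin and mineralocorticoid genes, 0 for AT1 signalling and 3 for the AngII-induced genes, and the calls over all genes went from 22.7% to 3.93%. Without a filter on dim probes the AT1 signalling count was 2 (9.73% of all genes), and with slide as a fixed block it was 3 (18% of all genes). The causes of these shifts were not tested.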

Other observations

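The log2 difference between the Ren2 and Ren1 probes was 4.32 to 4.44 on 4 WT arrays (replicates 1 and 2 before challenge, 3 and 4 at day 3) and 2.92 to 3.55 on the other 8. With normexp background correction the same 4 arrays had 2.90 to 3.52 and the other 8 had 1.75 to 2.82. The difference is read across arrays only, since probes differ in their brightness.

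Summed adipocyte marker levels were 21.1 to 56.1 before challenge and 17.7 to 174.8 at day 3. In the mean response 0 of 7 tested markers were called, against 22.7% of all genes, and Lep was well above background on 0 of 12 arrays. Summed mesothelial marker levels were 3.92 to 64.4 before challenge and 2.70 to 41.8 at day 3.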
